A study of Homo sapiens with 4 samples.

Results

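Interferon-stimulated genes were examined in LNCaP-derived prostate cancer cells, before and after induction of the methyl-CpG targeted activator NFκB (AD)-MBD. The set was a list of 45 genes given by symbol and grouped here by function. Of these, 44 had at least 1 probe among the 19483 genes that could be named on the array, and IFI27 had no probe that could be paired with it. Each gene was represented by its brightest probe. Expression was measured on 4 one-colour arrays, 1 per condition: TR9-MeTA14 without tetracycline (-Tet), TR9-MeTA14 treated with tetracycline for 4 days (+Tet), TR15-MeTA5 -Tet and TR15-MeTA5 +Tet.

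LNCaP is an androgen-sensitive human prostate cancer line. All 4 conditions share its background, a stably integrated Tet repressor (in the clone TR9 or the clone TR15) and a stably integrated tetracycline-inducible NFκB (AD)-MBD construct with a FLAG tag. The fusion joins the activation domain of NFκB to a domain that binds methylated CpG. TR9-MeTA14 and TR15-MeTA5 are each 1 stable line, and tetracycline-treated cells without the construct were not analysed here, so an action of tetracycline and an action of the construct cannot be told apart. No condition was measured on a second array, and a difference between -Tet and +Tet in 1 line is a description with no p-value. The only test available was across the 2 lines.

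Interferon-stimulated genes are switched on when cells sense viral nucleic acid or receive interferon. Type I interferon binds the IFNAR1 and IFNAR2 receptor, the kinases JAK1 and TYK2 are activated, and STAT2 and IRF9 take part in the factor ISGF3, which binds a promoter element called ISRE. Interferon gamma acts on an element called GAS. The products degrade viral RNA, block viral entry or translation, and attach the ubiquitin-like protein ISG15 to other proteins. Some of these genes, IRF1 among them, are also NFκB targets. LNCaP cells are known for weak JAK1 expression and a poor response to interferon.

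The promoter sequences below are shown because ISRE is the element that interferon-activated factors bind, and methylated CpG the site that the construct's domain binds. Each is the 160 bases directly before the gene start, 5′ to 3′ on the gene's strand, from RefSeq on build GRCh38.p14. In the first 5 sequences capitals mark the ISRE core, which is GAAA, any 2 bases and GAAA, on either strand, and adjoining or overlapping matches run together. A match that crosses the gene start, as the second one of IFITM1 does, is not marked. In the last, which has no ISRE core in its windows, capitals mark CpG sites. IFITM1 (chr11:313880-314039, plus strand) and BST2 (chr19:17405631-17405790, minus strand) belong to the genes that were higher in both lines with tetracycline. ISG15 (chr1:1013337-1013496, plus strand) was much higher in TR9-MeTA14, OAS3 by its brightest probe (chr12:112938314-112938473, plus strand) and IFIH1 (chr2:162318685-162318844, minus strand) were lower there, and UBE2L6 (chr11:57567673-57567832, minus strand) passed the test over both lines.
IFITM1: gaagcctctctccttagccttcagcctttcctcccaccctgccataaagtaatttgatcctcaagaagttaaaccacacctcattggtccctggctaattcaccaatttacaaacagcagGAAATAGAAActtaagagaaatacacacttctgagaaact
BST2: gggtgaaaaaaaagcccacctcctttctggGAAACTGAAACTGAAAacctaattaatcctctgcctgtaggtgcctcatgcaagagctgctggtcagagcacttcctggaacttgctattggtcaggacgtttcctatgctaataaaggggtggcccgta
ISG15: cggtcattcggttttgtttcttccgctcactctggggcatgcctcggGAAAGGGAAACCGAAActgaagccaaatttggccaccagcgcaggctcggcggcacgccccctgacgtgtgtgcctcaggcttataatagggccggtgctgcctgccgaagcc
OAS3: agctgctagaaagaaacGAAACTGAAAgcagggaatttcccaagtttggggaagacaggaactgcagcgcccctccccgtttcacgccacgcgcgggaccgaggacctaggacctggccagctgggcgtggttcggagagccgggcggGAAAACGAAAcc
IFIH1: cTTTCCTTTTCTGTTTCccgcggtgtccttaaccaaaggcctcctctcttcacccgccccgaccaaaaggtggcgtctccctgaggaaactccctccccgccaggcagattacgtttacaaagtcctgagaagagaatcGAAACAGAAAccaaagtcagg
UBE2L6: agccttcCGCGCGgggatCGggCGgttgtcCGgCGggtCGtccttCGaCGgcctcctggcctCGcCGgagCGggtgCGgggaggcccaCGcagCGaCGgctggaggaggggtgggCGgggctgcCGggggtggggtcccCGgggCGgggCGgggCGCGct
The stretches of BST2 and IFITM1 held 2 and 0 CpG sites, those of OAS3 and ISG15 held 13 and 12, and that of UBE2L6 held 24.

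Signals are given as the background-subtracted processed intensities. For the changes, each array was divided by its 75th percentile, which was 618 and 777 in TR9-MeTA14 (-Tet and +Tet) and 367 and 542 in TR15-MeTA5. A +Tet signal is therefore discounted by 1.26 in TR9-MeTA14 and by 1.48 in TR15-MeTA5. Between 20569 and 24222 of 34127 probes were well above background on an array. On every array all 8 LNCaP markers, KLK2, KLK3, TMPRSS2, FOLH1, HOXB13, KRT8 and KRT18 among them, were well above background. With tetracycline 5 of the 8 were at least 2-fold lower in TR9-MeTA14 and 0 of the 8 in TR15-MeTA5, against 15.1% and 2.22% of all genes. In TR15-MeTA5 all 8 were still below 0 on the log2 scale after scaling. Their median there was -0.65, against -0.19 for all genes on all 4 arrays, and KLK2 was 1.98-fold lower. These are bulk RNA samples, in which fewer cells of a type and less RNA per cell cannot be told apart.

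Of the 44 members with a probe, 32 were well above background on all 4 arrays, 7 on some and 5 on none. The 5 were RSAD2, SAMD9, SAMD9L, IFI44L and XAF1, for which no change is given. In TR9-MeTA14, 38 members could be compared, 3 of them only as a bound because 1 of the arrays was not well above background. Of the 38, 12 (31.6%) were higher with tetracycline by 2-fold or more and 4 (10.5%) were lower by as much, where 16.8% and 15.1% of all genes compared were. With normexp background correction and quantile normalization, run together on median signals, these counts were 9 and 1. In TR15-MeTA5, 37 could be compared, again 3 as bounds. Here 8 (21.6%) were higher by 2-fold or more and 0 lower, against 9.79% and 2.22% of all genes. The normexp setting gave 4 and 0. The shares of all genes are those of the reported setting, so the normexp counts cannot be set against them.

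Both lines gave a value for 36 members, and 6 of them (16.7%) passed 2-fold upwards in both: IRF7, IRF9, UBE2L6, IFITM1, MX1 and BST2. The share among all genes was 8.21% in the reported setting. With normexp and quantile normalization 3 of the 6 remained (IRF7, UBE2L6 and IFITM1): IRF9 was then at 0.85 and BST2 at 0.58 on the log2 scale in TR15-MeTA5, and MX1 at 0.81 in TR9-MeTA14. BST2 was also under 2-fold in TR15-MeTA5 with quantile normalization alone, at 0.94. None of the 36 was at least 2-fold lower in both lines, against 0.837% of all genes. The 32 members on all 4 arrays had a median log2 change of 0.52 in TR9-MeTA14 and 0.04 in TR15-MeTA5, and the 12702 genes on all 4 arrays had medians of -0.14 and -0.19. In TR9-MeTA14 25 of the 32 lay above 0, and in TR15-MeTA5 18 did. No share of all genes above 0 is given beside these counts, and the place of 0 depends on the scaling. With spike-in scaling the median of all genes in TR15-MeTA5 was 0.25, and members such as STAT2 and TRIM21 turned from below to above 0 there. Across these 32 genes the changes in the lines had a Pearson r of 0.64 and a Spearman rho of 0.57, where all 12702 genes gave 0.75 and 0.65. Genes are not independent replicates, and the arrays are shared by all of them.

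**Figure D1:**
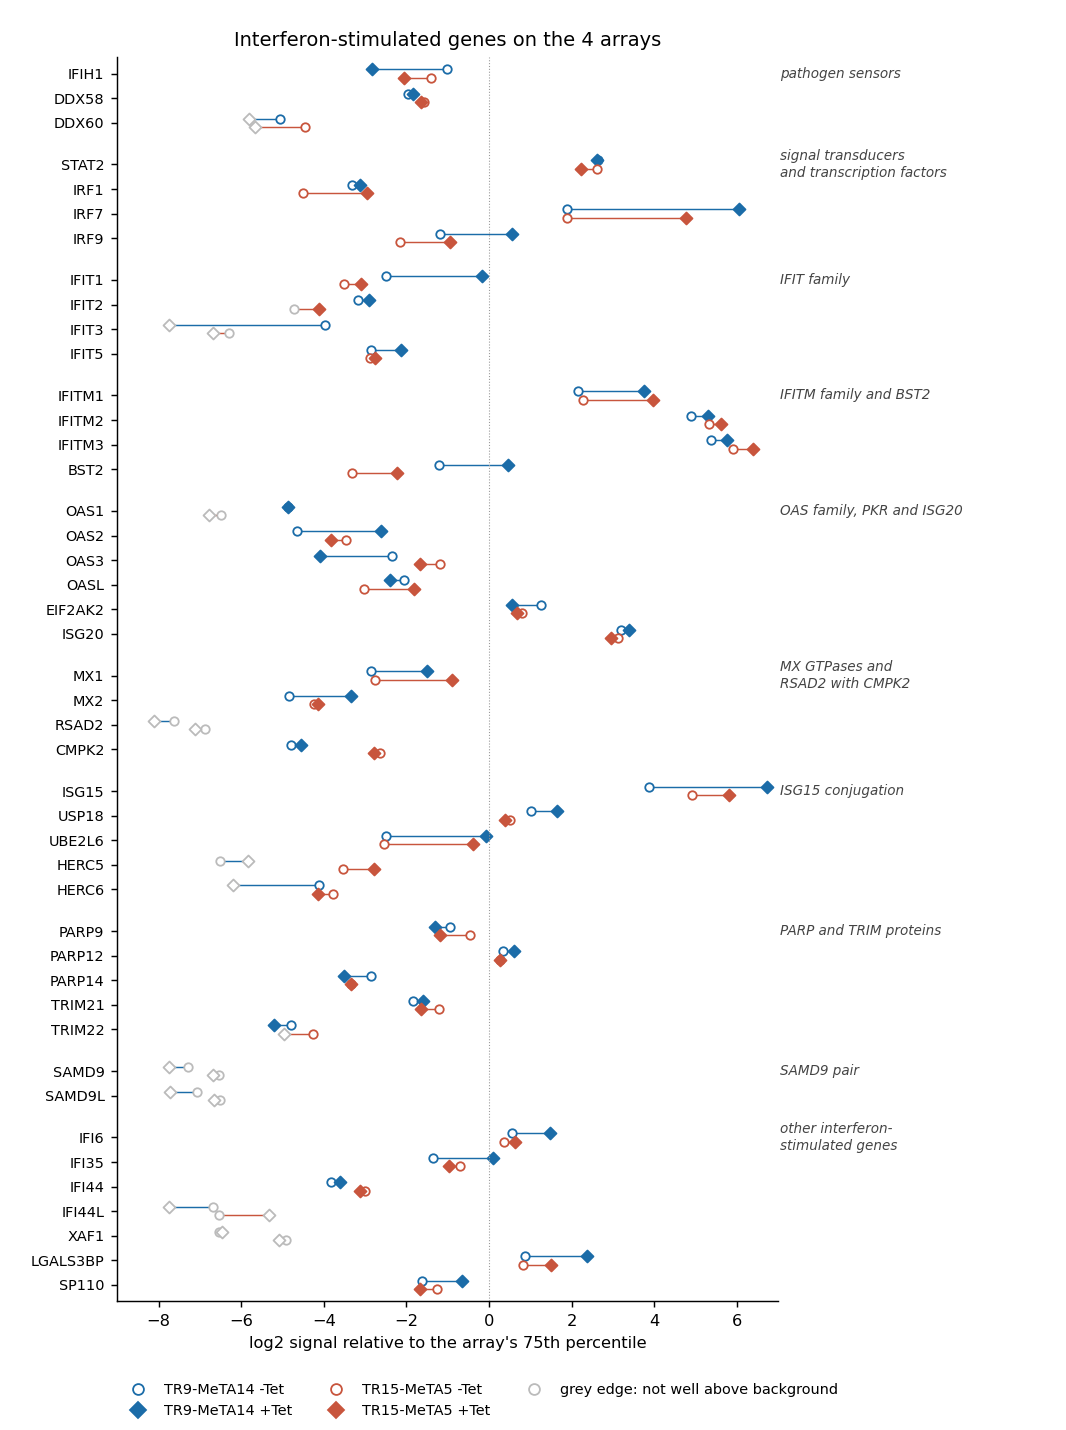
Level of each member on the 4 arrays, as log2 of the signal relative to the 75th percentile of its array (0 on the x axis). Circles are -Tet and diamonds +Tet, blue is TR9-MeTA14 and red TR15-MeTA5, and a grey edge marks a signal not well above background. IRF7, IRF9, IFITM1, BST2, MX1 and UBE2L6 move to the right in both lines, while IFIH1, OAS3 and HERC6 move to the left in both.

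Over both lines together, limma was fitted to 22821 probes with the cell line as a block and p-values adjusted over all of them by Benjamini-Hochberg. That fit has 1 residual degree of freedom. It called 3.15% of 14469 genes higher and 0.00691%, a single gene, lower. Of 38 members in it, 2 (5.26%) rose, IRF7 and UBE2L6, and 0 fell. At an unadjusted p under 0.05 the counts were 8 higher and 1 lower, where 4406 of all 22821 probes were under it in either direction. IRF7 and UBE2L6 were no longer called when the test was limited to probes detected over background on every array.

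The transcription factors of the list are IRF7, which drives transcription of interferon genes, IRF9 and STAT2, which are parts of ISGF3, and IRF1, which is induced by interferon gamma and by NFκB. The IRF7 signal was 2298 and 51423 in TR9-MeTA14 (-Tet and +Tet) and 1353 and 14797 in TR15-MeTA5. After scaling that was a 17.8-fold and a 7.39-fold higher level, and IRF7 had a log2 change of 3.52 ± 0.40 (SE) with an adjusted p of 0.038 by limma. It had the largest change of the 32 members in each line. Without tetracycline IRF7 was 1.01-fold lower in TR15-MeTA5.

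The IRF9 signal went from 269 to 1145 in TR9-MeTA14 and from 82.4 to 282 in TR15-MeTA5, which was 3.38-fold and 2.31-fold higher (adjusted p = 0.108 by limma). Its partner STAT2 was measured at 3837 and 4751 in TR9-MeTA14 and at 2239 and 2518 in TR15-MeTA5. That was 1.02-fold lower and 1.32-fold lower after scaling. With spike-in scaling STAT2 was above 0 in both lines, at 0.12 and 0.04 on the log2 scale. Of these partners, IRF9 passed 2-fold in both lines and STAT2 in neither.

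IRF1 went from 62.3 to 88.5 in TR9-MeTA14 and from 16.3 to 70.4 in TR15-MeTA5. Its fold was 1.13 in the first line and 2.93 in the second. The TR15-MeTA5 -Tet value stood apart as the low one, 2.27-fold under that of TR9-MeTA14, and the +Tet values were 1.14-fold apart. With normexp and quantile normalization on median signals, the IRF1 change in TR15-MeTA5 was 0.64 on the log2 scale in place of 1.55.

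ISG15 and its conjugation enzymes held the second gene that passed the test. UBE2L6, the E2 enzyme that carries ISG15, was at 110 and 738 in TR9-MeTA14 and at 62.9 and 417 in TR15-MeTA5. This was 5.32-fold and 4.49-fold higher, with a log2 change of 2.29 ± 0.27 (SE) and an adjusted p of 0.040 by limma. The -Tet values of the lines were 1.04-fold apart. ISG15 itself was at 9099 and 81803 in TR9-MeTA14 and at 11109 and 30334 in TR15-MeTA5. It was 7.15-fold higher in the first line and 1.85-fold higher in the second (adjusted p = 0.220 by limma), with the TR9-MeTA14 +Tet array well over the other 3.

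USP18, the protease that removes ISG15, was 1.55-fold higher in TR9-MeTA14 and 1.09-fold lower in TR15-MeTA5. HERC5, the main ligase for ISG15 in human cells, was not well above background in TR9-MeTA14 (6.77 and 13.7) and was at 31.4 and 78.6 in TR15-MeTA5. Its probe was printed on 10 spots, whose unscaled signals ranged from 24.3 to 56.7 and from 69.5 to 114 on the TR15-MeTA5 arrays. After scaling HERC5 was 1.70-fold higher there. HERC6, its neighbour on chromosome 4, was at 35.7 and 10.6 in TR9-MeTA14, at least 3.22-fold lower, and at 26.5 and 30.6 in TR15-MeTA5, 1.28-fold lower. In log2 the TR9-MeTA14 bound was -1.69, and with normexp and quantile normalization it was -0.53, under 2-fold. With spike-in scaling HERC6 was at 0.07 in TR15-MeTA5, so its direction there depends on the scaling.

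The IFITM proteins hinder the fusion of viruses with cell membranes, and BST2 (tetherin) holds budding virus at the cell surface. IFITM1 was at 2730 and 10389 in TR9-MeTA14 and at 1782 and 8453 in TR15-MeTA5. The 3.03-fold and 3.21-fold higher levels were the most even pair among the 6 genes, and a second IFITM1 probe gave 2.99-fold and 3.04-fold (adjusted p = 0.068 by limma for the brighter probe). IFITM2 and IFITM3, its neighbours on chromosome 11, were 1.33-fold and 1.31-fold higher in TR9-MeTA14 and 1.22-fold and 1.39-fold higher in TR15-MeTA5. The 3 genes are close in sequence, so cross-hybridisation between their probes is possible.

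BST2 was at 265 and 1062 in TR9-MeTA14 and at 36.8 and 115 in TR15-MeTA5. It was 3.19-fold and 2.12-fold higher with tetracycline (adjusted p = 0.137 by limma), and both TR15-MeTA5 values lay under both TR9-MeTA14 values. Without tetracycline BST2 was 4.27-fold lower in TR15-MeTA5, and with it 6.44-fold lower.

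MX1 and MX2 are dynamin-like GTPases that trap viral components, and they are neighbours on chromosome 21. MX1 was at 85.7 and 273 in TR9-MeTA14 and at 54.4 and 293 in TR15-MeTA5, 2.53-fold and 3.64-fold higher (adjusted p = 0.100 by limma). It was the only gene besides IFITM1, among the 6 higher in both lines, with the larger fold in TR15-MeTA5. MX2 was 2.81-fold higher in TR9-MeTA14 and 1.06-fold higher in TR15-MeTA5. CMPK2, a nucleotide kinase next to RSAD2 on chromosome 2, was at 22.4 and 33.0 in TR9-MeTA14 and at 58.4 and 78.3 in TR15-MeTA5. Its change with tetracycline was 1.17-fold higher and 1.10-fold lower, but its -Tet level was 4.39-fold higher in TR15-MeTA5. RSAD2 (viperin) was not well above background on any array.

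**Figure D2:**
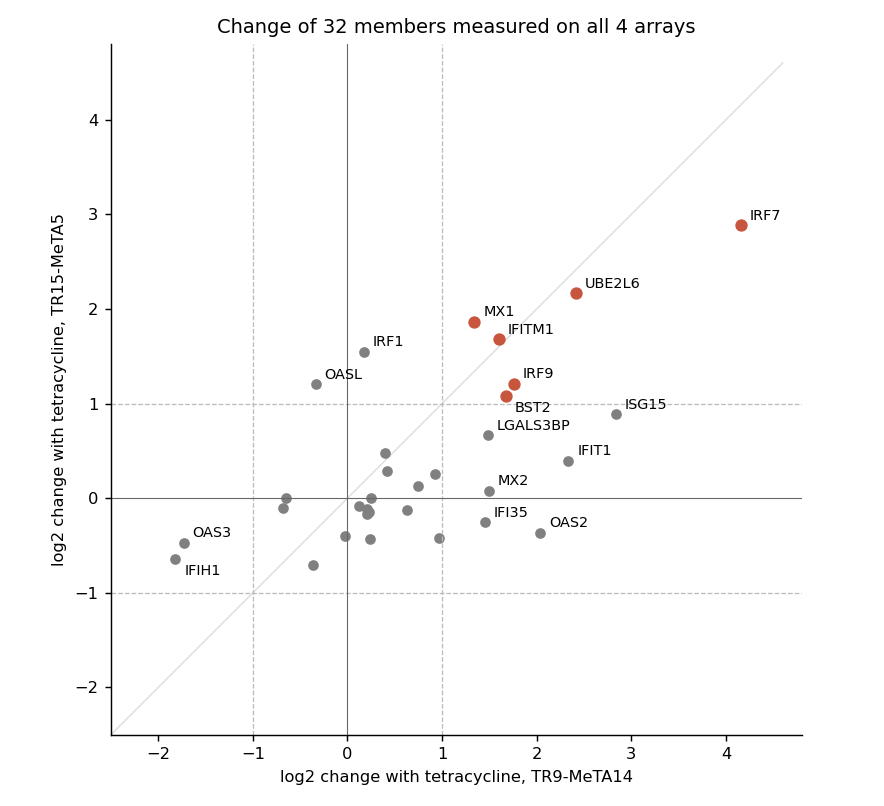
Log2 change with tetracycline in TR9-MeTA14 (x axis) against TR15-MeTA5 (y axis) for the 32 members on all 4 arrays, each point 1 gene measured on 1 array per condition. Dashed lines mark 2-fold, red points are at least 2-fold higher in both lines, and named points pass 2-fold in at least 1 line. IRF7 lies at 4.15 and 2.89, and ISG15, IFIT1 and OAS2 lie to the right of the diagonal.

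The IFIT proteins bind viral RNA and hinder its translation. Their genes lie together on chromosome 10 and did not move together. IFIT1 was at 109 and 693 in TR9-MeTA14 and at 32.4 and 63.0 in TR15-MeTA5, which was 5.04-fold and 1.32-fold higher (adjusted p = 0.271 by limma). IFIT3 was at 39.7 in TR9-MeTA14 -Tet and not well above background on the other 3 arrays, with a bound of at least 3.58-fold lower in TR9-MeTA14. In log2 that bound was -1.84, and with normexp and quantile normalization it was -0.53, under 2-fold. IFIT2 was at 68.8 and 104 in TR9-MeTA14 and at 13.9 (not well above background) and 31.5 in TR15-MeTA5. That is 1.21-fold higher and at least 1.38-fold higher. A second, dimmer IFIT2 probe went the other way, at least 3.27-fold lower in TR9-MeTA14, so the direction of IFIT2 is not settled. IFIT5 was 1.67-fold and 1.10-fold higher.

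The OAS enzymes make an oligoadenylate that activates RNase L, and OAS1, OAS3 and OAS2 lie side by side on chromosome 12. OAS2 was at 24.6 and 127 in TR9-MeTA14 and at 33.0 and 37.9 in TR15-MeTA5, which was 4.11-fold higher and 1.29-fold lower. Another OAS2 probe gave 1.48-fold higher in TR9-MeTA14. OAS3 was at 121 and 45.6 in TR9-MeTA14 and at 160 and 171 in TR15-MeTA5, so that it was 3.32-fold lower and 1.38-fold lower. The TR9-MeTA14 +Tet array was the low one. A second, dimmer OAS3 probe went from 8.72 (not well above background) to 22.1 in TR9-MeTA14, at least 1.14-fold higher. The log2 change of OAS3 there, -1.73, was -0.77 as the mean over its probes and -0.91 with normexp and quantile normalization, so both its size and its direction depend on the probe and the processing. OAS1 was measured only in TR9-MeTA14, at 21.1 and 26.5, with a 1.00-fold change.

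OASL, a related protein without the enzyme activity, was 1.26-fold lower in TR9-MeTA14 and 2.31-fold higher in TR15-MeTA5. EIF2AK2 (PKR), the kinase that stops translation on sensing double-stranded RNA, was 1.61-fold and 1.08-fold lower. ISG20, an RNA exonuclease, was 1.15-fold higher and 1.12-fold lower.

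The cytosolic RNA sensors on the member list, IFIH1, DDX58 and DDX60, were not among the genes at least 2-fold higher. The related DHX58, outside that list, was 2.01-fold and 3.09-fold higher and is given with the pathway genes. IFIH1 (MDA5) was at 306 and 109 in TR9-MeTA14 and at 138 and 131 in TR15-MeTA5, 3.53-fold and 1.56-fold lower. It had the lowest mean change of the 36 members with a value in both lines, and its adjusted p was 0.238 by limma. DDX58 (RIG-I) was 1.09-fold higher and 1.06-fold lower. DDX60 was at 18.5 and 13.8 in TR9-MeTA14 and at 16.9 and 10.7 in TR15-MeTA5, where both +Tet signals were not well above background, with bounds of 1.67-fold and 1.30-fold lower.

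None of the 5 PARP and TRIM genes passed 2-fold in either line. PARP9, which modifies proteins with ADP-ribose, was at 320 and 314 in TR9-MeTA14 and at 265 and 240 in TR15-MeTA5, 1.28-fold and 1.64-fold lower. PARP12 was 1.19-fold higher and 1.00-fold. Its 9 or 10 kept spots had an SD of 0.05 to 0.10 in log2 on an array. PARP14 was 1.56-fold lower in TR9-MeTA14, with no change to 2 decimals in TR15-MeTA5 (1.00-fold).

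Of the remaining members, LGALS3BP, a secreted glycoprotein, was at 1137 and 4000 in TR9-MeTA14 and at 651 and 1528 in TR15-MeTA5, 2.80-fold and 1.59-fold higher (adjusted p = 0.220 by limma). IFI35 was 2.74-fold higher in TR9-MeTA14 and 1.19-fold lower in TR15-MeTA5. SP110, a nuclear body protein, was 1.96-fold higher and 1.33-fold lower. IFI6, which protects mitochondria from apoptosis, was 1.90-fold and 1.19-fold higher, and IFI44 1.16-fold higher and 1.08-fold lower. In TR9-MeTA14 5 of these 5 genes were above 0 on the log2 scale and in TR15-MeTA5 2 of the 5 were. These signs depend on the processing. With spike-in scaling IFI35, IFI44 and SP110 were at 0.18, 0.31 and 0.02 in TR15-MeTA5. With normexp and quantile normalization IFI44 was at -0.04 in TR9-MeTA14.

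The lines also differed before induction. Without tetracycline, 5 of 38 members (13.2%) were higher in TR15-MeTA5 than in TR9-MeTA14 by 2-fold or more and 4 (10.5%) lower by as much, against 8.2% and 5.18% of all genes. CMPK2, OAS2 (2.26-fold), OAS3 (2.24-fold), ISG15 (2.06-fold) and HERC5 (at least 3.42-fold) were the higher ones. BST2, IRF1, IFIT1 (2.01-fold) and IFIT2 (at least 2.65-fold) were the lower ones. With tetracycline 4 of 35 (11.4%) were higher in TR15-MeTA5 by 2-fold or more and 9 (25.7%) lower, against 14.2% and 10.4% of all genes. IFIT1 was then 7.67-fold lower and IRF7 2.43-fold lower in TR15-MeTA5, while OAS3 was 5.38-fold higher. These comparisons use the same 4 arrays as the tetracycline comparisons. A test of whether the response itself differed between the lines would need more arrays than the 4.

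The pathway upstream of these genes was followed through a further 70 genes, 66 of which had a probe. In TR9-MeTA14 7 of 39 (17.9%) were at least 2-fold higher and 1 (2.56%) lower. In TR15-MeTA5 these were 4 of 41 (9.76%) and 0. The shares of higher genes are near those of all genes (16.8% and 9.79%), and those of lower genes are below them (15.1% and 2.22%). Of 36 in the limma fit, 1 was called higher and 0 lower. The 1 was SOCS3, which entered the fit only through its +Tet arrays and so had to differ. At least 2-fold higher in both lines were 4 of 36 genes (11.1%, against 8.21% of all genes): SOCS3, SOCS1, IFNL2 and DHX58. DHX58 only just passed the 2-fold cut-off in TR9-MeTA14, with a log2 change of 1.004. Changes in the alternative settings are given for the members only.

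SOCS1 and SOCS3 are feedback inhibitors of JAK kinases. SOCS3 was not well above background on either -Tet array (4.22 and 6.79) and was at 1253 in TR9-MeTA14 and 391 in TR15-MeTA5 with tetracycline. It was at least 64.4-fold and at least 17.1-fold higher. No p-value is given for SOCS3, because its probe entered the limma fit through the +Tet arrays where it is high. SOCS1 was at 57.3 and 192 in TR9-MeTA14 and at 35.5 and 155 in TR15-MeTA5, 2.66-fold and 2.96-fold higher (adjusted p = 0.108 by limma). DHX58 (LGP2), a regulator of the RNA sensors, was at 324 and 817 and at 168 and 769, 2.01-fold and 3.09-fold higher.

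Among the ligands, 11 of 17 with a probe were below background on all arrays, IFNB1 and IFNG among them. IFNB1 signals were between 4.35 and 5.93. IFNL2, an interferon lambda gene, was at 74.0 and 467 in TR9-MeTA14 and at 55.2 and 186 in TR15-MeTA5, 5.02-fold and 2.28-fold higher. IFNL2 and IFNL3 are nearly identical in sequence, so the probe may not tell them apart. The separate IFNL3 probe was well above background only in TR9-MeTA14 +Tet, at 59.3 against 4.16, at least 3.05-fold higher. In TR15-MeTA5 it was at 4.19 and 18.7, with no change given. After the reported scaling both receptor chains for type I interferon were lower: IFNAR1 by 1.57-fold and 1.27-fold, and IFNAR2 by 2.10-fold and 1.55-fold. The unscaled IFNAR1 signal rose in TR15-MeTA5, from 380 to 443, so its direction there depends on the scaling. Another IFNAR2 probe, well above background on all 4 arrays, read 2.08-fold and 1.43-fold lower. The dimmest IFNAR2 probe read 1.13-fold lower and 1.14-fold higher, so the IFNAR2 transcripts are not all covered by the lower readings.

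The signals of IFNAR1 were 622 and 499 in TR9-MeTA14 and 380 and 443 in TR15-MeTA5, and those of IFNAR2 were 1166 and 697 and 863 and 823. The chains IFNGR1 and IFNGR2 of the interferon gamma receptor were within 1.31-fold in both lines. The lambda receptor IFNLR1 was near the background, and its partner IL10RB was 1.59-fold higher and 1.40-fold lower. No receptor gene was at least 2-fold higher with tetracycline in either line.

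JAK1 was well above background on 1 array, TR9-MeTA14 +Tet, at 28.7, with 10.7, 21.9 and 20.2 on the others, and at least 1.47-fold higher in that line. The other kinases were measured on all arrays. TYK2 was at 202 and 437 and at 122 and 283, 1.72-fold and 1.57-fold higher. JAK2 was at 139 and 97.7 and at 53.9 and 69.4, 1.78-fold and 1.15-fold lower after scaling. Its unscaled signal rose in TR15-MeTA5, so its direction there depends on the scaling. Of 11 further targets of interferon gamma, 4 were below background on all arrays, CXCL9, CXCL10 and CXCL11 among them. GBP1 and GBP2 were well above background only in TR15-MeTA5 +Tet (29.8 and 41.0), at least 1.31-fold and at least 1.80-fold higher. Of the 3 that could be compared in TR9-MeTA14 and the 5 in TR15-MeTA5, 0 passed 2-fold, with GBP4 1.34-fold lower and 1.01-fold higher, WARS1 1.26-fold lower and 1.03-fold higher, and IDO1 at least 1.28-fold and 1.17-fold higher.

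**Figure D3:**
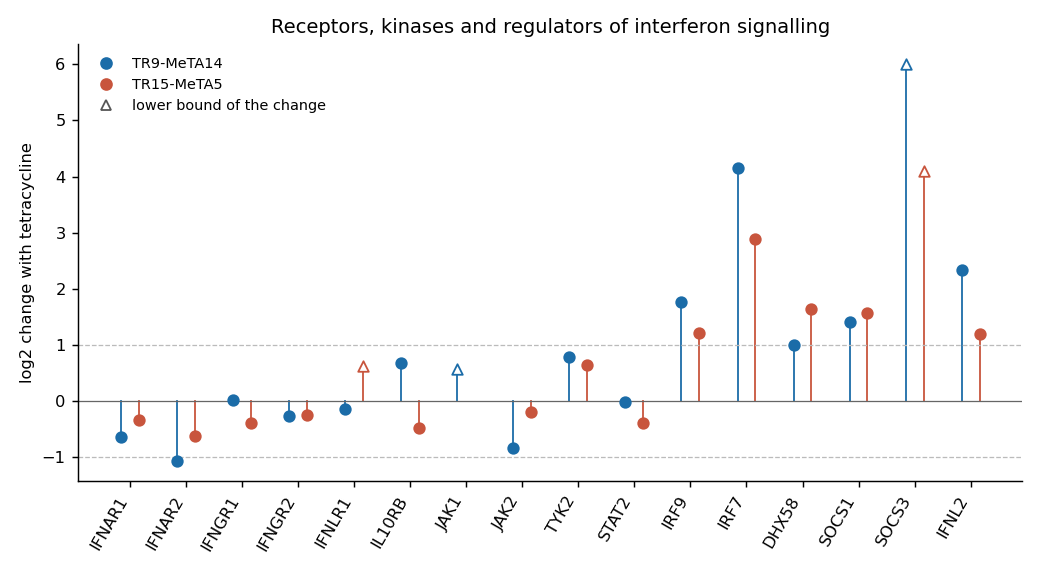
Log2 change with tetracycline (y axis) of the receptors, kinases, STAT2, regulators and IFNL2, in TR9-MeTA14 (blue) and TR15-MeTA5 (red), each from 1 array per condition. Dashed lines mark 2-fold and open triangles are lower bounds against background. JAK1 in TR15-MeTA5 has no value. IRF7, IRF9, DHX58, SOCS1, SOCS3 and IFNL2 pass 2-fold in both lines. STAT2 lies under 0 in both in the reported setting, and above 0 in both with spike-in scaling.

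Some other immune genes also had higher signals. Of 6 leukocyte markers 3 were at least 2-fold higher in each line, where 16.8% and 9.79% of all genes were. CD14 and CD68 passed 2-fold upwards in both lines. PTPRC and ITGAM passed it in neither, and CD3E went the other way in TR15-MeTA5, at least 2.55-fold lower. The summed signal of the list of 6 went from 420 to 2792 in TR9-MeTA14 and from 564 to 1924 in TR15-MeTA5. CD14 was 9.62-fold and 4.77-fold higher, with an adjusted p of 0.051 by limma. Of 6 stromal and endothelial markers 3 were below background on all 4 arrays. The part of these genes, and of the lower LNCaP markers, in the results above was not tested.

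The promoter windows of 36 of the 44 members with a probe could be read, each 250 bases before to 50 bases after a gene start (RefSeq, GRCh38.p14). IFITM2, TRIM22, MX2, IRF7, IFIT2, OASL, USP18 and OAS2 had no entry. The ISRE core (GAAA, any 2 bases, GAAA), on either strand, was in a window of 24 of the 36 (66.7%), and in 4.14% of the 15176 array genes with a window. The GAS motif TTCNNNGAA, which reads the same on both strands, was in 10 of the 36 (27.8%) and in 9.05% of all. A match here is a run of letters and not a shown binding site, and the list is one of interferon-responsive genes, so the ISRE share describes how it was made up.

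Of the 5 genes with a window among those higher in both lines, IFITM1, BST2 and MX1 had an ISRE core, and UBE2L6 and IRF9 had none. GAS was in 4 of these 5, all but UBE2L6. Among the 21 other members with a window that were on all 4 arrays, 15 (71.4%) held the ISRE core and 4 (19.0%) GAS. IFIH1 and OAS3, both lower in TR9-MeTA14 by their brightest probe, held 3 and 2 ISRE cores, and ISG15 and IFIT1, both over 5-fold higher there, held 2 each. The motif was thus found among members that were higher and among members that were lower.

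The construct binds methylated CpG, and CpG counts per window ranged from 0 to 45 among the members with a median of 11.5, against a median of 25 for all genes. For genes with several windows the highest count was taken. UBE2L6 had 41, MX1 30, IRF9 7, IFITM1 3 and BST2 2. Across 26 members the count had a Pearson r with the log2 change of -0.20 in TR9-MeTA14 and 0.11 in TR15-MeTA5 (Spearman rho -0.34 and -0.02). Methylation of these promoters was not measured in the arrays.

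**Figure D4:**
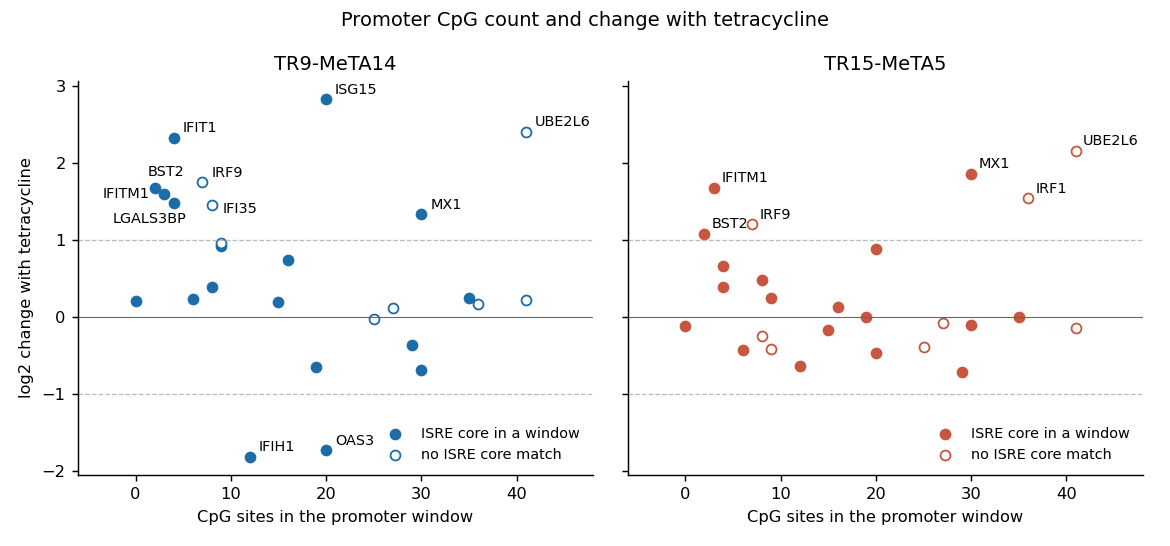
Number of CpG sites in the 300-base promoter window (highest of a gene's windows, x axis) against the log2 change with tetracycline (y axis) for the 26 members with a window and measured on all 4 arrays, in each line. Filled points have an ISRE core in a window and open points have none, dashed lines mark 2-fold, and named genes pass it. UBE2L6 with 41 sites and BST2 with 2 are both above 2-fold in both lines.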

How the data were processed

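RNA of LNCaP-derived cells was hybridised to 4 one-colour Agilent arrays, 1 per condition, all on the same slide. The authors extracted the images with Agilent Feature Extraction (10.7.3.1 per the file headers, 9.5.1 per the labels) and deposited spot intensities. The processed signal intensity is background-subtracted and detrended within an array, with no scaling across arrays. The series-wide table they deposited repeats these intensities for all 44495 spots. The samples were grouped by their titles.

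From these values, outlier spots (255 to 344 per array) were left out, log2 signals of a probe's spots were averaged, and the array's 75th percentile over 34127 non-control probes was subtracted. No spot was saturated. Probes were paired with genes through RefSeq accessions (25422 probes, 74.5%), and a gene takes its brightest probe. Where a signal was not well above background, the other array was set against the higher of that signal and the lowest signal well above background on its array (13.9 to 19.2), giving an "at least" fold. The ratio of replicate spots has an SD of 0.0875 in log2, which covers spotting error only. A 2-fold difference was the cut-off, as in the study.

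limma 3.58.1 in R 4.3.3 (lmFit, eBayes with an intensity trend) tested tetracycline with the cell line as a block over probes with a signal well above background on 2 arrays or more, and was tested on simulated data. Its SEs and p-values use a variance that eBayes moderates towards that of probes of similar intensity. They measure only the spread between these samples. The members, pathway and marker lists were chosen with earlier results of these data known. Signals on all arrays were given for members at least 2-fold changed in both lines, the 5 highest and 5 lowest mean changes among the rest, those 2-fold apart between the uninduced lines, and the transcription factors. Of the pathway, JAK1, JAK2, TYK2, IFNB1, the receptors and genes 2-fold changed in both lines were named. Others, such as MX2, IFI35, OASL, IFIT3 and the leukocyte markers, were named after their values were seen. A few genes of the pathway and marker lists are counted but not reported here by name. Alternatives were quantile, median and spike-in scaling, the percentile over spots, normexp with quantile normalization (offset 50, on median signals), the series table, all spots, other filters, the mean over a gene's probes, cut-offs of 1.5-fold and 3-fold, and limma without block or trend. Promoter motifs were searched with Python 3.11.15.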

Additional observations from a re-analysis of the deposited data

Results flagged for a closer look

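For 3 members the change with tetracycline pointed one way in TR9-MeTA14 and the other way in TR15-MeTA5, with 2-fold passed in 1 of the lines and each line measured by 1 pair of arrays. OAS2 had log2 changes of 2.04 in TR9-MeTA14 and -0.36 in TR15-MeTA5. OASL had -0.34 and 1.21, and IFI35 had 1.45 and -0.25. The difference between the lines was not tested, since the design leaves no degree of freedom for it. With spike-in scaling, which moves the median of all genes in TR15-MeTA5 from -0.19 to 0.25, OAS2 and IFI35 were at 0.07 and 0.18 there and no longer opposite. OASL kept its signs in every setting run. With normexp and quantile normalization OAS2 was at 0.80 in TR9-MeTA14 and OASL at 0.72 in TR15-MeTA5, both then under 2-fold. A dimmer OAS2 probe gave 0.57 in TR9-MeTA14 and a bound of 0.26 in TR15-MeTA5.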

How the results depend on the processing

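No replicate could be left out, because each condition has 1 array. The replicate number is the same on every array and so pairs none of them. The cell line paired -Tet and +Tet as the block of the limma fit, and without that block limma called 2 members as well. In the reported setting 12 members were at least 2-fold higher and 4 lower in TR9-MeTA14, 8 higher and 0 lower in TR15-MeTA5, and 6 higher and 0 lower in both, with 2 higher by limma. Normexp with quantile normalization on median signals gave 1 lower in TR9-MeTA14, 4 higher in TR15-MeTA5 and 3 higher in both (IRF7, IFITM1 and UBE2L6). A cut-off of 3-fold gave 4 higher in TR15-MeTA5 and 3 higher in both, and a cut-off of 1.5-fold gave 7 lower in TR9-MeTA14, 2 lower in TR15-MeTA5 and 1 lower in both. Without a filter 1 was lower in TR15-MeTA5. With the filter on all 4 arrays 2 were lower in TR9-MeTA14 and limma called 0 members, with UBE2L6 at an adjusted p of 0.062. Spike-in scaling gave 4 by limma, adding IRF9 and IFITM1. Quantile normalization also gave 6 higher in both, with ISG15 in place of BST2. No other count moved by over 1.5 times. IRF7, UBE2L6 and IFITM1 passed 2-fold upwards in both lines in every scaling run, and in none of the settings did a change of at least 2-fold turn its sign. Several members reported as lower in TR15-MeTA5 were above 0 there with spike-in scaling. Among them were STAT2, DDX58, EIF2AK2, ISG20, USP18, CMPK2, HERC6, SP110 and TRIM21, and TRIM21 went from -0.43 to 0.003. PARP12 and PARP14 sat at 0 there in the reported setting. The causes were not tested. The series table repeats the processed signals and is no test of stability. Dim signals limit IFIT3, HERC6, DDX60, TRIM22 and IFIT2, for which only bounds exist on some arrays.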
